A study of Mus musculus with 27 samples.

Results

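In 3 of 27 mouse prostate tumours the genes of chromosome 1 were expressed as a group at a higher level than in the other 24, and these 3 tumours, named P235, P1218 and P1394 after their animals, are described here. They were chosen by the median of their chromosome 1 genes. Each gene with a mean of at least 5.79 log2 over all tumours (the median level of all rows of the table) was centred on its own median over the 27 tumours. Each tumour was then centred on its median over all 12994 such genes, and the median over the 751 genes on chromosome 1 had to exceed 0.2 log2. All 27 tumours came from F2 males that carried the TRAMP transgene, on a mixed background of C57BL/6-Tg(TRAMP)8247Ng/J and PWK/PhJ, and no tumour of another genotype or treatment is compared. The animals reached either 30 weeks or a humane endpoint before their tumours were scored, so age at collection differed between animals and is not given per tumour. The labels place all 27 in 1 group and name no batch, and each tumour is 1 animal and 1 array.

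As background, the TRAMP transgene drives the early region of SV40 from the probasin promoter, which is active in prostate epithelium, and the viral T antigens bind p53 and the retinoblastoma protein. Tumour cells with gains or losses of whole chromosomes often show a matching shift in the expression of many genes along the affected chromosome. Such a shift is usually small for each gene, and genes that are silent in the tissue or under tight control can depart from it. Only RNA was analysed here, so the number of chromosome copies was not tested.

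The chromosome 1 median was 0.32 log2 in P235, 0.30 in P1218 and 0.22 in P1394. In the other 24 tumours it lay between -0.11 in P1469 and 0.03 in P912. P1394 is thus the member closest to the threshold and P912 the tumour just outside it, and no tumour lay between them. The means were 0.28 ± 0.05 log2 (SD, n = 3) and -0.03 ± 0.04 (SD, n = 24), a difference of 0.31 log2 or 1.24-fold. These values chose the tumours and are a description with no test. A further 16 rows with a mean of at least 5.79 log2 belong to chromosome 1 genes that have several rows. These rows were not used for the choice, but their genes and arrays were, so they are not independent of it. Centred among the further rows of all chromosomes, they had a median of 0.34 in P235, 0.18 in P1218 and 0.16 in P1394. In the others it ranged from -0.31 to 0.14 (P966).

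**Figure D1:**
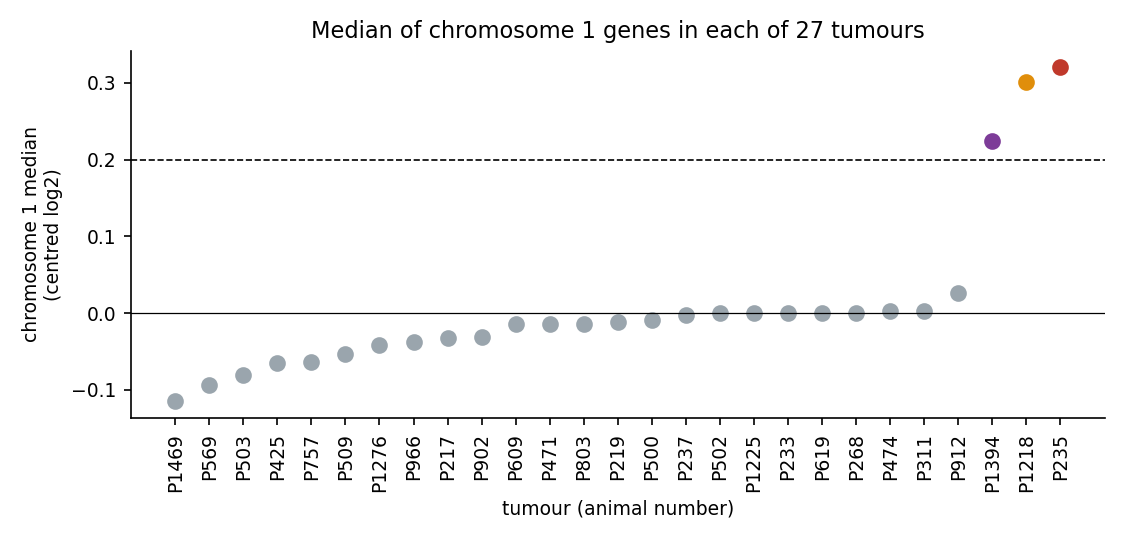
Median of the 751 chromosome 1 genes (centred log2) in each of the 27 tumours, in order of the median; the dashed line is the threshold of 0.2. P235, P1218 and P1394 sit at 0.32, 0.30 and 0.22, and the next tumour, P912, at 0.03.

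Most chromosome 1 genes followed the shift in part, and few stood clear of all other tumours. Of the 751 genes, 58 (7.72%) had centred values in all 3 tumours above those of all other 24, beside 15 of 12243 genes on the other chromosomes (0.123%). No chromosome 1 gene had all 3 values below the other 24, beside 18 genes elsewhere (0.147%). All 3 values lay above the upper quartile of the others for 290 genes (38.6%), against 4.73% elsewhere. Here and below a gene's difference is the mean of the 3 centred values minus the mean of the 24. It had a median of 0.32 on chromosome 1 with quartiles of 0.06 and 0.57. Elsewhere the median was -0.02, with quartiles of -0.20 and 0.18. The difference exceeded 0.2 for 479 of the 751 chromosome 1 genes, 0.5 for 229 and 1 for 45. Matching counts for genes elsewhere are not given here. At the other end 164 genes (21.8%) had a difference at or below 0 and are called escaping here, beside 53.2% of genes elsewhere. In 124 of the 164 no tumour of the 3 lay above the upper quartile. Whatever the difference, that held for 19.8% of all chromosome 1 genes and 51.5% of genes elsewhere. Because chromosome 1 chose the tumours, nothing is read from its larger shares.

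The 3 tumours did not raise the same genes to the same degree. Taken alone, P235 exceeded all other 24 in 167 genes, P1218 in 194 and P1394 in 143. P1394 lay below all 24 in 16 of the 751 genes, P1218 in 5 and P235 in 4. Matching counts of single tumours among genes elsewhere are not given here. Whether 16 is more than any single tumour would show was therefore not tested, and the 16 are listed as values only. The 16 genes of P1394 included the collagens Col3a1 and Col6a3, the dermatopontin gene Dpt and Casp8, which encodes the initiator caspase of death receptor signalling. Casp8 stood at 8.60 log2 in P235, 7.26 in P1218 and 5.42 in P1394, against 6.07 to 9.45 (median 7.11) in the others. Over the 751 genes the centred values of P1218 and P1394 correlated with r = 0.63, while P235 correlated with them at 0.10 and 0.04. Over the 12243 genes elsewhere the same correlations were 0.47, 0.06 and -0.07. The points are genes of the same arrays, and these correlations are descriptions.

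The shift was spread along the chromosome but was not even. The 747 genes with a place in the RefSeq gene order were cut into 15 windows of 50 neighbours (47 in the last). The median of every window was above 0 in all 3 tumours, but that of P235 in the seventh was only 0.0002. In 11 of 15 windows all 3 lay above all other 24. The first window, from Xkr4 to Sdhaf4, stood at 0.44, 0.43 and 0.31 in P235, P1218 and P1394, with the others at most 0.17. The last, from 9630028B13Rik to Cr1l, stood at 0.25, 0.47 and 0.41, with the others at most 0.14.

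The shift was smallest in the seventh window, from Eif4e2 to Stk25, where P235 stood at 0.00, P1218 at 0.10 and P1394 at 0.13. The others reached 0.10 there, so P235 did not stand out. In the 12th window, from Klhl20 to Fcgr4, P1394 fell to 0.06, within the range of the others, while P235 kept 0.35 and P1218 0.23. The fifth (Erbb4 to Ptprn) and ninth (Zranb3 to Myog) windows also overlapped, and the highest comparison tumour in them was P425, at 0.22 and 0.31. P425 has the highest luminal marker score of the 27 tumours.

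**Figure D2:**
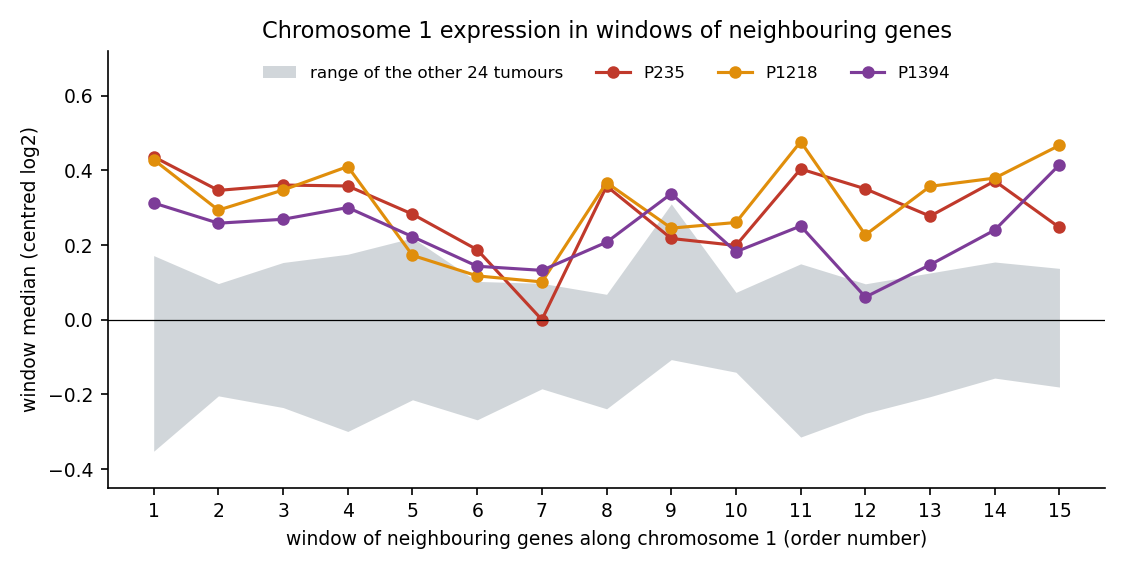
Median of centred log2 values in 15 windows of neighbouring chromosome 1 genes, in gene order, for the 3 tumours (lines) and the range of the other 24 (grey band). All 3 lines lie above the band in 11 of 15 windows, and those of P235 and P1218 are lowest in windows 6 and 7.

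Whether a gene followed varied with its level. The 751 genes were split into 3 nearly equal parts by their mean over 27 tumours. In the lowest part (5.79 to 7.13 log2) the median difference was 0.06, with 43.4% of 251 genes escaping. It was 0.36 in the middle part, with 15.7% of 249 genes escaping, and 0.41 in the highest part, with 6.37% of 251 genes escaping. The medians of P235, P1218 and P1394 were 0.18, 0.04 and 0.09 in the lowest part and 0.35, 0.41 and 0.26 in the highest. Genes elsewhere had median differences of -0.08, -0.01 and 0.02 over the same level ranges. The 483 chromosome 1 genes left out for low values had a median difference of -0.05, and values this low are close to array background. Across the 751 genes difference and mean level had a Spearman rho of 0.33.

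**Figure D3:**
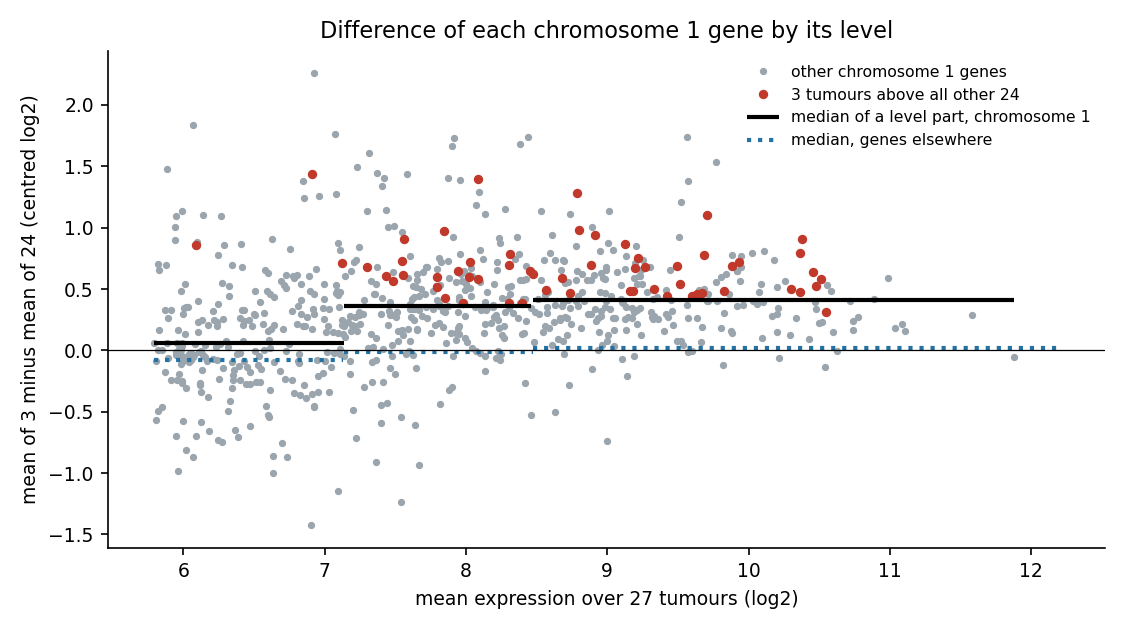
Difference of each of the 751 chromosome 1 genes (mean of 3 minus mean of 24 tumours, centred log2) against its mean level over 27 tumours; red points are the 58 genes whose 3 values lie above all others. The medians of the 3 level parts (black) are 0.06, 0.36 and 0.41 on chromosome 1, and those of genes elsewhere (blue, dotted) stay between -0.08 and 0.02.

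Promoters were compared because CpG-rich promoters are typical of broadly expressed genes and CpG-poor ones of tissue-restricted genes. RefSeq promoters (GRCm38.p6, from 250 bases before to 50 after the gene's start) matched 625 of the 751 genes, and the motif counted was CG, which reads the same on both strands. At least 1 CG is found in 94.2% of the 27025 promoters of that length in the table, and their median is 7. Promoters of the matched chromosome 1 genes held a median of 20, those of the 58 genes above all others also 20 (51 matched) and those of the escaping genes 12 (132 matched). Both promoters shown belong to the genes at the ends of the named range, Fmn2 with the largest difference among the 58 and Elf3 with the lowest of all 751. Capitals mark each CG. The Fmn2 promoter lies on the plus strand at chr1:174501575-174501874 and holds 17, and the Elf3 promoter lies on the minus strand at chr1:135258423-135258722 and holds 12.
Fmn2: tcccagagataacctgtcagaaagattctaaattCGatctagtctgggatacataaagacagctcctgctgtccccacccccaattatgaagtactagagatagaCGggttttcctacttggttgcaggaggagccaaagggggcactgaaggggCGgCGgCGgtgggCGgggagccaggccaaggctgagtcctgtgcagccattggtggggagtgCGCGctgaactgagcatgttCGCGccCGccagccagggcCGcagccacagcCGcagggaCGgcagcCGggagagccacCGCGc
Elf3: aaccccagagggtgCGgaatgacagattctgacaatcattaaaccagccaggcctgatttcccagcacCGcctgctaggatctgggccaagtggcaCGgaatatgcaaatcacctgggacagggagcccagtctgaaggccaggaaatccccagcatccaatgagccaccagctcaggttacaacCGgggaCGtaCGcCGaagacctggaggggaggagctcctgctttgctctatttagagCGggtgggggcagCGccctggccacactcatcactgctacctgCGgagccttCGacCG
Both are fairly rich in CpG beside the median of all promoters, so these 2 genes are not told apart by this count. In 3 parts of rising CpG count the median differences were 0.21, 0.36 and 0.37. Among genes in the lowest part by level they were -0.01 (120 genes), 0.25 (47 genes) and 0.23 (40 genes), and in the highest part by level 0.43 (35 genes), 0.40 (84 genes) and 0.41 (86 genes). CpG count and level were themselves related, with a Spearman rho of 0.37 across the matched genes.

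The genes that followed most, chosen as the 12 largest differences among the 58, carried quite different functions. Fmn2, a formin that nucleates actin, stood at 7.75 log2 in P235, 8.25 in P1218 and 8.55 in P1394, against 4.92 to 7.65 (median 6.91) in the others. The difference was 1.44 ± 0.28 (SE), or 2.71-fold. Rgs7, a neuronal regulator of G protein signalling and a near neighbour of Fmn2 in gene order, stood at 9.23, 9.49 and 9.24, against 4.94 to 9.14 (median 8.26), a difference of 1.39 ± 0.25. Gdap1, a mitochondrial fission gene, stood at 9.93, 9.83 and 10.01, against 4.05 to 9.84 (median 9.27), and P1218 cleared the highest other tumour only on the centred values. Its difference of 1.28 fell to 0.51 when the 8 tumours with the highest luminal marker scores were left out.

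Several of the 12 act in chromosome handling and the cell cycle. Xrcc5 encodes Ku80, which binds broken DNA ends, and stood at 9.76, 9.73 and 9.53, against 8.03 to 9.36 (median 8.73) in the others. Its difference of 0.98 ± 0.10 stayed at 0.90 without the 8 luminal-high tumours. Nuf2, a kinetochore subunit, stood at 11.10, 11.33 and 11.11, against 7.45 to 11.08 (median 10.45), a difference of 0.91 ± 0.17 that was 0.52 without the 8. Cep170 and Cspp1, both centrosomal, differed by 1.11 ± 0.17 and 0.97 ± 0.12, or by 0.61 and 0.89 without the 8. Tsn, which encodes the nucleic acid binding protein translin, stood at 10.97, 11.13 and 11.11 against 9.26 to 10.70, a clear gap. The remaining 4 were Cdc42bpa, a kinase downstream of Cdc42 (0.94), Odr4 (0.91), Aida (0.86) and Fam72a (0.86). Fam72a was the lowest of the 12 in level, at 6.93, 6.85 and 6.77 against 5.11 to 6.75.

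Larger differences than that of Fmn2 existed in genes whose groups overlapped. Vxn had the largest of all at 2.26 ± 0.53, with 8.62, 8.31 and 9.85 in the 3 tumours, but the others ranged from 4.85 to 8.85 (median 6.43), so only P1394 stood clear. Colgalt2, a collagen galactosyltransferase gene, followed with 1.83 ± 0.36, at 8.15, 7.03 and 7.90 against 4.97 to 7.05. Both were picked after their values were seen.

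**Figure D4:**
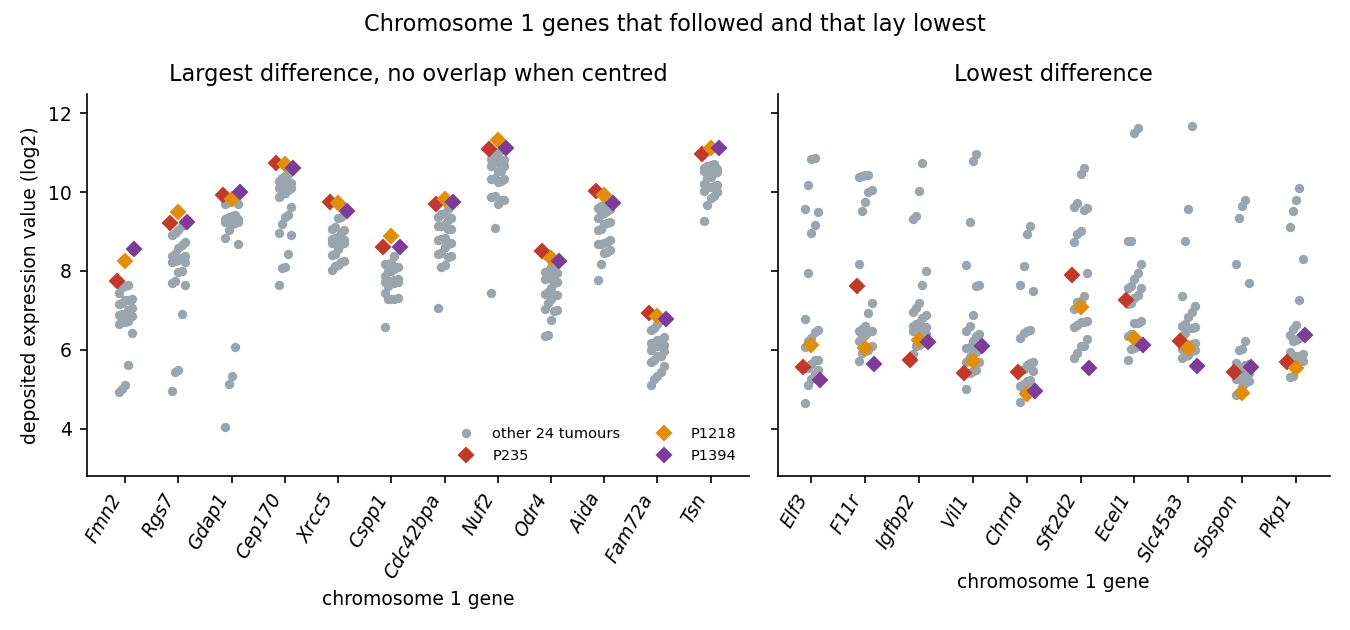
Deposited log2 values of the 12 chromosome 1 genes with the largest difference and no overlap of centred values (left) and the 10 with the lowest difference (right); diamonds are P235, P1218 and P1394 and grey points the other 24 tumours. On the left the diamonds lie at or above the top of the grey points, and on the right they overlap the grey points, while the highest comparison tumour of each gene reaches 9.14 or more.

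The genes with the lowest differences included several genes of epithelial cells. Elf3, an epithelial transcription factor, stood at 5.56, 6.11 and 5.23 in P235, P1218 and P1394, against 4.64 to 10.87 (median 6.27), a difference of -1.43 ± 0.48. F11r, a tight junction adhesion molecule, stood at 7.63, 6.05 and 5.65, against 5.72 to 10.43 (median 6.55). Vil1, the microvillus protein villin (-1.0), Slc45a3, the prostate transporter prostein (-0.87), and the desmosome gene Pkp1 (-0.86) also belonged to this set. The 10 were completed by Igfbp2, an IGF binding protein (-1.15), Chrnd, a muscle acetylcholine receptor subunit (-0.98), Sft2d2 (-0.94), the peptidase gene Ecel1 (-0.91) and Sbspon (-0.87).

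For these 10 genes the 3 tumours overlapped the others, and the highest values were those of comparison tumours. P235 lay above the median of the others in F11r, Sft2d2 (7.89 against 7.22) and Ecel1, and P1394 in Pkp1 and Sbspon. In 9 of the 10 the highest value belonged to 1 of the 8 tumours with high luminal marker scores, and in Ecel1 it did not. Those scores are 1.40 or more, where the rest reach at most 0.61 and the 3 tumours stand at -0.72, -1.19 and -1.26. Without the 8, Elf3 differed by -0.14, F11r by -0.01, Pkp1 by -0.03, Sbspon by -0.10 and Sft2d2 by 0.03. Igfbp2 then differed by -0.58, with P235 at 5.75 below the lowest other tumour at 5.89, Slc45a3 by -0.51 and Ecel1 by -1.13. In bulk tissue fewer cells of a type and less RNA per cell cannot be told apart. With the 16 remaining comparison tumours, 91 chromosome 1 genes stood above all others and 125 escaped. Matching counts for genes elsewhere against these 16 are not given here. Fewer comparison tumours are also easier to clear. The change from the counts against all comparison tumours is therefore not read.

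Only 16 genes in the highest part by level escaped, and they are named after their values were seen. Neurl3 (-0.74), Phlda3 (-0.51) and Rnpepl1 (-0.28) had the lowest differences, and Phlda3 is a p53 target that inhibits Akt. Phlda3 stood at 8.61, 7.56 and 8.37 in P235, P1218 and P1394, against 7.87 to 10.20 (median 8.67), and P1218 was below all others. The next were the heparan sulphate genes Gpc1 (-0.21) and Hs6st1 (-0.07), Tmem163 (-0.15), the small nucleolar RNA Snord89 (-0.13), Fn1 (-0.12), Hdlbp (-0.06), Sde2 (-0.05), Csrp1 (-0.01) and Fam20b, within 0.01 of 0. Without the 8 luminal-high tumours Neurl3 differed by -0.10, Phlda3 by -0.33 and Rnpepl1 by -0.006. Hs6st1 (0.28), Hdlbp (0.23), Fam20b (0.15), Csrp1 (0.14), Fn1 (0.10), Snord89 (0.03) and Imp4 (0.03) were then above 0. The rest of the 16 stayed below 0.

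Some of the 16 were close to the median of the others in all 3 tumours. Stk25, a kinase of the Golgi apparatus, stood at 9.58, 9.49 and 9.60 against 8.97 to 10.0009 (median 9.56). Imp4, which processes ribosomal RNA, stood at 9.05, 8.92 and 8.83 against 8.57 to 9.22 (median 8.96). Ptma, the prothymosin gene and the highest expressed of the 751, stood at 11.53, 12.06 and 11.91 against 11.28 to 12.39, with P235 lower than the other two. Fn1 (fibronectin) and Rgs5, a pericyte gene, instead differed between the 3 tumours. Fn1 stood at 10.75 in P235, 9.57 in P1218 and 8.82 in P1394, and Rgs5 at 9.65, 8.95 and 7.41.

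Among lists of chromosome 1 genes by role, cell division and replication had the highest median difference. All 15 measured members had a difference above 0, from 0.31 to 0.91 with a median of 0.62, and 9 stood above all other tumours on the centred values. Of all 751 chromosome 1 genes 21.8% were at or below 0 and 7.72% stood above all others. The list had a median level of 9.44 log2. In the highest part by level only 6.37% of genes escaped and the median difference was 0.41. The share of level in the list's values was not tested. The kinetochore genes Nuf2 and Cenpf, the helicase subunits Mcm3 and Mcm6, Orc2 of the origin recognition complex, the primase subunit Prim2, Sgo2a, Dtl and Ube2t made up the 9. Cenpf stood at 10.31, 10.47 and 10.34 against 7.58 to 10.14 (median 9.67). Mcm6 stood at 10.88, 10.82 and 10.77 against 10.16 to 10.70. The mitotic kinesin Kif14 differed by 0.85 with overlap, at 9.73, 9.48 and 9.41 against 6.91 to 9.52. Averaged over the list, the 3 tumours ranked above all other 24. Without the 8 luminal-high tumours all 15 stayed above 0, with a median of 0.40.

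Lists of metabolism, translation, kinase and transcription genes followed at about the median of the 751 genes, which was 0.32 with 21.8% at or below 0. In mitochondria and core metabolism 12 of 14 genes were above 0 (median 0.32), led by the mitochondrial ribosomal protein gene Mrps14 (0.77) and the purine synthesis gene Atic (0.49), and Mrps9 stood above all others. In ribosome and translation 8 of 9 were above 0 (median 0.36), led by the nucleolar genes Nop58 (0.59) and Ncl (0.50). Ncl, nucleolin, stood at 10.76, 10.79 and 10.66 against 9.38 to 10.66 (median 10.31). Among kinases 7 of 9 were above 0 (median 0.27), led by Dyrk3 (0.82) and Stk17b (0.64). Dyrk3 stood at 7.97 in P1218 and 8.44 in P1394, but P235 was at the median of the others (7.09). Among transcription and chromatin genes 13 of 18 were above 0 (median 0.29), with the orphan nuclear receptor gene Esrrg (1.34) and the homeobox gene Prox1 (0.68) highest.

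In the list of p53, apoptosis and survival genes 10 of 12 were above 0, with a median of 0.18. Mdm4, an inhibitor of p53, stood at 9.83, 10.04 and 9.73 in P235, P1218 and P1394, against 8.56 to 9.68 (median 9.38) in the others. Mdm4 and Xrcc5 were the 2 members above all other tumours. Cflar, which blocks caspase-8, differed by 0.72 at 7.68, 8.18 and 7.70 against 6.03 to 8.17. Casp8 and Phlda3 were the 2 at or below 0, at -0.61 and -0.51.

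Lists of signalling and neuronal genes were mixed. Among receptors and ligands 11 of 18 were above 0 (median 0.09). The receptor tyrosine kinase genes Erbb4 and Epha4 had the largest differences there, at 1.73 ± 0.66 and 1.67 ± 0.24. Erbb4 stood at 10.39, 9.50 and 8.46 against 4.40 to 9.96 (median 8.25). Epha4 was even among the 3, at 9.31, 9.36 and 9.49 against 6.07 to 9.93 (median 7.78). Fzd7, a Wnt receptor, was high in P1218 (9.98) and P1394 (9.60) and not in P235 (6.09), against 5.33 to 9.57. Among neuronal and secretory genes 14 of 19 were above 0 (median 0.48), led by the potassium channel gene Kcnj9 (1.47) and the adhesion gene Astn1 (1.15). Kcnj9 stood at 6.55, 7.30 and 7.72 against 5.13 to 6.75. Among regulators of G protein signalling 6 of 10 were above 0 (median 0.15), led by Rgs7 and Rgs16 (0.68).

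Immune and matrix lists on chromosome 1 differed between the 3 tumours, with P235 mostly highest. Of 14 matrix and laminin genes 2 were above 0 (median -0.10), Prelp at 1.40 and Tnn at 0.04, and the laminin gene Lamb3 was lowest at -0.65. Without the 8 luminal-high tumours 6 of the 14 were above 0 (median -0.08). Col3a1 stood at 9.65 in P235, 8.13 in P1218 and 6.75 in P1394, against 7.28 to 9.48. P235 was thus above and P1394 below all other tumours. Among interleukin 1 and 18 receptors 1 of 5 was above 0, and Il1r1 stood at 6.52, 5.08 and 4.39 against 4.57 to 8.90.

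Of 10 interferon-inducible Ifi200 genes 9 were above 0, but 9 of the 10 had mean levels under 5.79. Only Aim2, a sensor of cytosolic DNA, was above that level, at 7.77, 8.90 and 9.56 against 4.85 to 9.40. Ifi204 stood at 7.47 in P235, 4.66 in P1218 and 2.81 in P1394. Some members of this family are similar in sequence, so signal may be shared between those, which was not tested. Of 14 Fc receptor and SLAM genes 10 were above 0 (median 0.22), led by Cd84 (0.65) and Fcgr4 (0.49), and Fcgr4 was high in P235 alone (7.49, 6.06 and 5.68, with a median of 6.02 in the others). Of 7 complement regulators 2 were above 0, Cd46 (1.24) and Cr1l (0.68), or 4 of 7 without the 8 luminal-high tumours, and of 8 clade B serpins 3, led by Serpinb8 (1.55), with Serpinb5 lowest (-0.66). None of the 8 serpins, 2 of the 7 complement regulators and 1 of the 5 interleukin receptors reached a mean of 5.79 log2, and among all 483 chromosome 1 genes under that level 63.8% were at or below 0.

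Marker scores off chromosome 1, each the mean over a list of log2 values centred on the gene's mean, showed the same split. The macrophage and myeloid score was 1.04 in P235 (rank 2 of 27), -0.17 in P1218 and -0.58 in P1394 (rank 26), with the others from -1.30 to 1.19. The fibroblast and matrix score was 0.85, -0.47 and -1.33, the last being the lowest of all tumours. The interferon response score was 1.32, -0.44 and -1.01, again lowest in P1394. Skeletal muscle, smooth muscle and adipose scores each ranked P235 at 3 of 27, and the seminal vesicle gene Svs5 reached 12.58 in P235 against at most 11.28 in the others. P235 therefore differed from P1218 and P1394 in markers of other cell types while sharing the chromosome 1 shift. The part of these cells in the values of P235 was not tested. The neuroendocrine score was 0.09, 0.22 and 0.27, against a median of 0.29 in the others. Of its 17 members 11 were higher and 6 lower, beside 8266 higher of all 20892 genes off chromosome 1. Their median difference was 0.40, or -0.04 without the 8 luminal-high tumours, and none passed the limma threshold. The defining markers Chga, Syp and Ncam1 stood between 8.08 and 11.14 log2, with medians of 10.03, 7.93 and 10.59 in the others. The 6 lower members were Pcsk1 (-1.82), Foxa2 (-0.84), Chgb (-0.26), Dll3 (-0.14), Neurod1 (-0.06) and Eno2 (-0.03). The prohormone convertase gene Pcsk1 stood at 4.99, 7.09 and 5.89 against a median of 7.67. Dll3 and Neurod1 had mean levels of 4.78 and 4.38 log2, under 5.79.

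Away from chromosome 1 no gene passed. The fit with limma on the deposited values, 3 tumours against 24, called 0 of 20892 genes at an adjusted p under 0.05 (background 0%). At an unadjusted p under 0.05 there were 486 higher (2.33%) and 704 lower genes (3.37%). The other forms of the same limma fit called between 0 and 20 genes. The 10 genes with the smallest p, 5 in each direction, are given as values that did not pass.

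Rnf182, a ubiquitin ligase gene on chromosome 13, came closest. It stood at 7.08, 6.89 and 7.31 in P235, P1218 and P1394, against 4.52 to 6.31 (median 5.59), so all 3 were above all others. The difference was 1.56 ± 0.27 (SE), 2.95-fold, with a limma adjusted p of 0.0595. Over the other settings that included it, its limma adjusted p ranged from 0.00051 with array weights to 0.939 without P1394. It passed the threshold with each tumour centred (0.035) and with marker scores as covariates (0.0106). It also passed without the 4 tumours lowest in the neuroendocrine score (0.0124) and without the 8 luminal-high tumours (0.0466). The mean level of Rnf182 was 5.71 log2, under 5.79, so the fit of genes at or above that level left it out. The smallest limma adjusted p of that fit was 0.28, for Zfp663.

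The next higher genes were 2 zinc finger genes, Zfp663 on chromosome 2 and Zfp976 on chromosome 7, and D3Ertd751e on chromosome 3. Zfp663 stood at 6.85, 6.93 and 7.05 against 4.92 to 6.60, a difference of 1.23 ± 0.25 with an adjusted p of 0.35 by limma. D3Ertd751e stood at 7.47, 7.496 and 7.56 against 5.86 to 7.17. Zfp976 stood at 6.17, 6.44 and 6.48 against 3.56 to 6.19, so P235 overlapped 1 other tumour. Zinc finger genes of this kind are a large family of similar sequences, and which copies a probe set reads was not tested. Serpina1f differed by 0.62, carried by P235 at 6.64, with P1218 at 5.25 inside the range of the others (4.96 to 5.56). Zfp976 and Serpina1f had mean levels of 5.09 and 5.31 log2, under 5.79 like that of Rnf182.

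The lower genes were of moderate to high level. Mpc1, a subunit of the mitochondrial pyruvate carrier on chromosome 17, stood at 9.67, 8.79 and 8.65 against 9.32 to 10.71 (median 10.14), a difference of -1.05 ± 0.22 with an adjusted p of 0.35 by limma. P235 overlapped the others there. Mir5125, also on chromosome 17, stood at 9.61, 9.39 and 9.67 against 9.95 to 11.11. Cox8a, a cytochrome c oxidase subunit gene on chromosome 19, stood at 9.94, 9.90 and 9.999 against 10.18 to 11.20. Tmem147 stood at 7.72, 7.87 and 7.79 against 8.01 to 8.94. For these last 3 genes all 3 tumours were below all others. Ccnb2, a mitotic cyclin gene, stood at 10.02, 10.35 and 9.37 against 9.60 to 11.01 (median 10.79).

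No list of genes off chromosome 1 had a member that passed. Of all 20892 genes 8266 were higher and 12626 lower, with a median difference of -0.05. Without the 8 luminal-high tumours 12377 of them were lower. The mitosis list had 11 of 15 genes higher (median 0.05), and without the 8 luminal-high tumours 10 of 15 were lower (median -0.15). Ska3 at 0.62 ± 0.41 and Ccnb2 at -0.80 ± 0.20 had its largest differences. The list of DNA replication and E2F targets had 10 of 14 higher (median 0.12), and without the 8 tumours 9 of 14 were lower (median -0.05). Mcm2, Mcm4, Mcm5 and Mcm7, which form the replicative helicase with the chromosome 1 members Mcm3 and Mcm6, differed by -0.04, 0.14, -0.08 and -0.12. Mcm7 stood at 9.92, 10.36 and 10.24 against 9.72 to 10.68. Mki67, a proliferation marker, stood at 11.23, 11.17 and 11.18 against 9.98 to 11.61 (median 11.15). Mcm3, in contrast, stood at 9.998, 9.981 and 10.0001 against 8.32 to 9.97 (median 9.48), and the difference between members on and off chromosome 1 was not tested.

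Regulators of the retinoblastoma pathway were split, with 7 of 13 higher (median 0.05), beside 8266 of all 20892 genes. The cell cycle inhibitors Cdkn1c (-1.07 ± 0.32), Cdkn2b (-0.68 ± 0.26) and Cdkn2a (-0.35 ± 0.15) had unadjusted p under 0.05 and an adjusted p of 0.807 each by limma. They were 3 of the 13 members, beside 3.37% of all genes lower at that unadjusted p. The inhibitors Cdkn1b (0.12 ± 0.20) and Cdkn2c (0.05 ± 0.41) were not lower. Cdkn2b stood at 6.85, 7.28 and 6.80 against 6.97 to 8.74 (median 7.63). Cdk6 stood at 8.63, 10.18 and 11.17 against 5.67 to 10.95. Among p53 targets 5 of 12 were higher (median -0.11), near the share over all genes. Cdkn1a stood at 9.65, 8.67 and 9.35 against a median of 9.79, and P1218 lay below all others (8.97 or more). Mdm2, the partner of Mdm4, stood at 8.85, 9.35 and 8.90 against 8.26 to 9.25, a difference of 0.28 ± 0.15.

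Epithelial lists were lower in the mean of the 3 tumours without passing. Over all 20892 genes off chromosome 1, 12626 were lower. Of 13 luminal markers 12 were lower, with a median of -1.19 that became -0.32 without the 8 luminal-high tumours. Krt8 stood at 7.30, 6.63 and 6.84 against 6.57 to 11.72 (median 7.79). Of 10 androgen-responsive and secretory genes 9 were lower (median -0.65, or -0.26 without the 8), and the probasin gene Pbsn stood at 3.58, 3.57 and 3.35, under the level threshold. Hoxb13, a prostate homeobox gene, was the exception at 9.10, 8.68 and 9.31 against 4.47 to 9.39 (median 8.48). P235 did not share the lower secretory list. Its score there was 0.03 (rank 7 of 27), against a median of -0.39 in the others, with P1218 at -0.72 and P1394 at -0.67. Msmb stood at 8.13 in P235, against a median of 4.71. The basal score of P235 (-0.10) was also above the median of the others (-0.14). Of the defining markers of the labelled tissue, Foxa1 (10.28, 10.77 and 10.55) and Hoxb13 were thus well expressed in all 3 tumours, and probasin was not.

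Among the other lists the medians were smaller. Their counts stand beside 12626 lower genes among all 20892 off chromosome 1. Of 12 ribosomal protein genes 11 were lower (median -0.24), with Rpl3 at -0.53 ± 0.25 and Rplp1 at -0.41 ± 0.15. Of 9 immediate early genes 9 were lower (median -0.44, or -0.12 without the 8 luminal-high tumours), with Egr1 at -0.85 ± 0.60. Of 9 class I antigen presentation genes 8 were lower (median -0.45, or 0.09 without the 8). Endothelial (-0.03), skeletal muscle (-0.08), T and NK cell (-0.08) and class II (-0.08) lists had medians near that of all genes.

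No other chromosome shared the shift in all 3 tumours at the tested threshold. Chromosome medians were compared by an exact permutation test over all 2925 ways to choose 3 of 27 tumours, two-sided, whose smallest possible p is 0.00034, with Benjamini-Hochberg adjustment over 20 chromosomes. The largest difference was on chromosome 19, where P235 stood at -0.20, P1218 at -0.23 and P1394 at -0.25. The difference was -0.28 log2 with an exact p of 0.012 and an adjusted p of 0.12. The other 24 ranged from -0.21 to 0.33 and 9 of them were below -0.1 as well, so P235 lay among them. Of the 18 genes elsewhere below all others in the 3 tumours 6 were on chromosome 19 and 4 on chromosome 17. Those chromosomes hold 426 and 637 of the 12243 genes elsewhere. The remaining genes were on chromosomes 5 (3), 7 (2), 13 (2) and 11 (1), and their spread was not tested. Chromosome 17 differed by -0.07, with an exact p of 0.0089 and an adjusted p of 0.12. P235 (-0.071) and P1218 (-0.078) lay below all others there (-0.048 to 0.106), and P1394 (-0.029) lay within their range.

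Single tumours of the 3 stood apart on other chromosomes. Chromosome 10 had a median of 0.25 in P1218, against -0.02 in both P235 and P1394 and at most 0.08 in the other 24. Chromosome 15 had a median of 0.22 in P1394, against -0.04 in P235, -0.03 in P1218 and at most 0.12 in the others. Chromosome 4 was at -0.09 in P1218, lowest of the 27 tumours. P235 had no further chromosome above 0.2 among 2 to 19 and X. The 5 genes measured on Y had medians of 0.35, 0.30 and -1.16 in P235, P1218 and P1394, against -3.17 to 0.55 in the others.

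**Figure D5:**
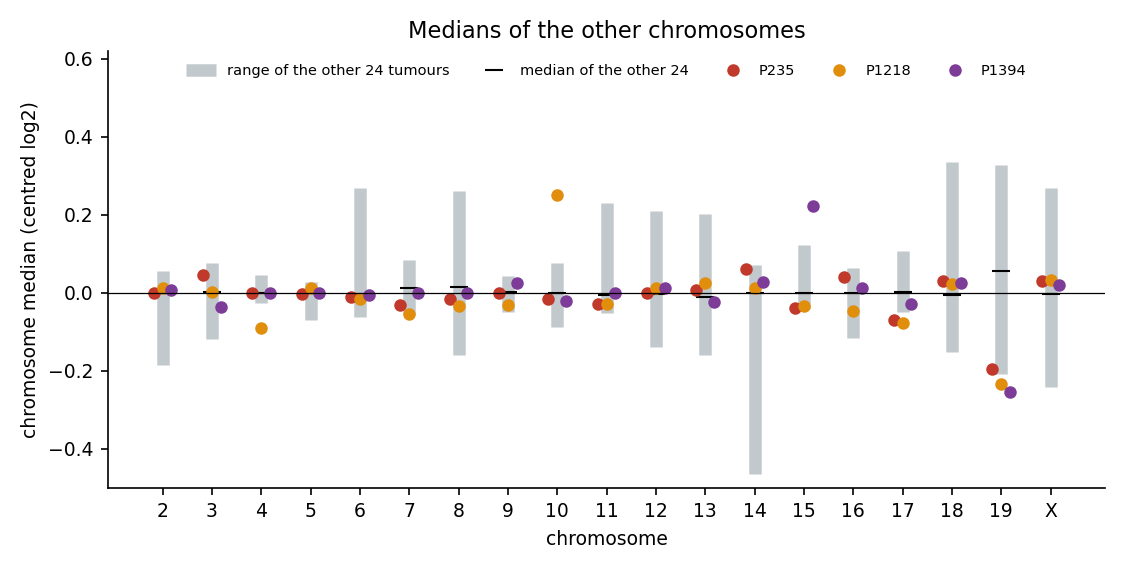
Median of centred log2 values for each chromosome from 2 to 19 and X in the 3 tumours (coloured points), with the range (grey bars) and median (dashes) of the other 24; Y, with 5 genes, is not drawn. The 3 tumours lie together at -0.20 to -0.25 on chromosome 19, and P1218 on chromosome 10 (0.25) and P1394 on chromosome 15 (0.22) stand alone above the other tumours.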

How the data were processed

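The authors deposited log2 values per probe set from single-label (biotin) arrays, 41345 rows in 27 tumours. The submitters' processing notes name Partek, and its version, the normalization and the array's build are not given in any source used here. Array medians lay between 5.67 and 5.82, and the number of arrays limits precision. Rows with 1 gene symbol (23521) gave 22180 genes, the row of highest mean being kept, and 22126 were placed by the RefSeq table of GRCm38.p6, 1234 on chromosome 1. Genes elsewhere were fitted with limma 3.58.1 (lmFit, eBayes with a trend) in R 4.3.3, adjusted by Benjamini-Hochberg over 20892 genes. Scripts were tested on simulated data. The tumours, gene lists and tests were chosen with earlier results of these data known. Genes named are the 12 largest non-overlapping and 10 lowest differences on chromosome 1, the 5 smallest p per direction elsewhere and 2 members per list; any others were picked with their values in view. The SE of a chromosome 1 difference comes from both groups' SDs. Alternatives covered normalization, centring, level filters, covariates, array weights and left-out tumours.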

Additional observations from a re-analysis of the deposited data

How the results depend on the processing

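The chromosome 1 difference of 0.31 was 0.14 with no filter on low values, 0.37 at a mean of at least 7 log2 and 0.016 over only the genes left out for low values; its other settings moved it by less than the spread between tumours. The count of 58 genes above all others was 290 when set against the upper quartile and 91 without the 8 luminal-high tumours (chosen after seeing the data). For the 91, fewer comparison tumours had to be cleared, and no matching count for genes elsewhere is given. Leaving out P1218, P235 or P1394 gave 69, 98 and 107, since fewer tumours must clear the others. The 164 escaping genes became 438 with no filter and 62 at the mean of at least 7. With no filter 1 other chromosome passed, chromosome 19 (-0.14, adjusted p 0.027, exact permutation test). The chromosome 10 difference ranged from -0.020 without P1218 to 0.117 without P1394, and that of chromosome 15 from -0.036 without P1394 to 0.0921 without P235: each rests on 1 tumour.

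Elsewhere limma called 1 gene with each tumour centred, 1 with marker scores as covariates, 1 without the 4 tumours lowest in the neuroendocrine score, 1 without the 8 luminal-high tumours and 20 (11 higher, 9 lower) with array weights; leaving out P235, P1218 or P1394 gave 0, 2 and 0. The cause was not tested. No paired analysis was possible because the labels give 1 group. With 3 tumours, small differences away from chromosome 1 may have been missed, and values near 5.79 log2 or below are close to background.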
